A study of Mus musculus with 61 samples.

Results

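Maps of 3-way chromatin contacts (Tri-C) from control mouse primary B cells were compared between the IgG1 and IgG2a viewpoints of the immunoglobulin heavy chain locus, Igh. The libraries were chosen by their labels, as the controls of the Spt5 experiment that were captured with the IgG1 pool probe or with the IgG2a probe. They are 6 of the 61 libraries in the series, 4 for IgG1 and 2 for IgG2a. The assay cuts and religates crosslinked chromatin, enriches molecules that hold a viewpoint with a biotinylated probe, and counts the pairs of places found in 1 molecule with that viewpoint. The sample labels give both groups as WT primary B cells, with no strain, age or time in culture, and give the medium for activation as complete RPMI with LPS and IL4. The libraries of Spt5-depleted cells were left out. The 4 IgG1 libraries are clone 1 replicates 1 and 3 and clone 2 replicates 1 and 2. The IgG2a libraries are replicates 1 and 2, and their titles name no clone. The labels do not say what a clone is for primary cells, what the IgG1 pool holds, or whether libraries come from separate cultures. The p-values therefore measure the spread between these libraries, which may be technical.

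Igh constant region genes each have a promoter and a switch region of their own, and activated B cells transcribe the switch region of the gene to which they will switch. Emu is the intronic enhancer between the J segments and the first constant genes, and hs4 is one of the enhancers of the 3' regulatory region beyond the last constant gene. LPS with IL4 is the textbook treatment for switching of mouse B cells to IgG1, while IgG2a switching in mouse is known as a response to interferon gamma.

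Each map is a square of 1 kb bins, and places are given in kb from the first bin. The hs4 site lies at 31 kb, IgG2a at 85 kb, IgG1 at 142 kb, IgG3 at 169 kb and Emu at 229 kb. IgG2a is thus the viewpoint nearer to hs4, at 54 kb against 111 kb for IgG1, and the farther one from Emu, at 144 kb against 87 kb. A site is a window of 11 kb around these places, or 10 kb for Emu, where the map ends. A share of ends is the percentage of the 2 ends of all contacts of a library that lie in a window. The deposited signal sums to 300000 in every map. The whole contacts behind it, as recovered from the steps of the values, number 44329 to 70743 in the IgG1 libraries and 11502 to 15274 in the IgG2a libraries. Profiles over 24 blocks correlated at a Pearson r of 0.94 to 0.98 between the IgG1 libraries and 0.91 between the IgG2a libraries, a description across blocks of 1 locus, which are not independent.

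Emu was seen far less from IgG2a than from IgG1. From IgG1 the Emu window held 9.58% and 5.18% of ends in clone 1 replicates 1 and 3, and 6.95% and 7.65% in clone 2 replicates 1 and 2. From IgG2a it held 1.48% and 1.33% in replicates 1 and 2. The groups did not overlap, and the lowest IgG1 library lay above both IgG2a libraries. The means were 7.34% ± 1.82 (SD, n = 4) and 1.40% ± 0.10 (SD, n = 2), and the log2 change from IgG1 to IgG2a was -2.35 with a standard error of 0.20 (limma, adjusted p = 7.88e-07). In recovered contacts, which are not divided per bin as the deposited signal appears to be, the shares at Emu were 2.08% to 3.53% from IgG1, and 0.298% and 0.0826% from IgG2a, a log2 change of -4.00, and with 1 divisor for all libraries the change was -3.86. The recovered IgG2a values rest on 91 and 19 contact ends, with 95% exact Clopper-Pearson intervals of 0.240% to 0.366% and 0.0497% to 0.129%.

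hs4 was also seen less from IgG2a, although it is the enhancer nearer to that viewpoint. From IgG1 the hs4 window held 6.67% and 5.76% of ends in clone 1, and 6.11% and 5.48% in clone 2. From IgG2a it held 2.59% and 1.95%. Again every IgG1 library lay above both IgG2a libraries. The means were 6.00% ± 0.51 (SD, n = 4) and 2.27% ± 0.46 (SD, n = 2), a log2 change of -1.41 with a standard error of 0.16 (limma, adjusted p = 7.58e-06). In recovered contacts the change was -1.49, from 7946, 6722, 10943 and 7447 ends at hs4 in the IgG1 libraries to 1075 and 492 in the IgG2a libraries. Without contacts of ends under 5 kb apart it was -0.77 (limma, adjusted p = 0.0404).

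The IgG3 site, at the constant gene between IgG1 and Emu, followed the same direction. It held 6.85%, 6.34%, 5.72% and 5.79% of ends from IgG1, and 1.45% and 2.56% from IgG2a. The groups did not overlap, and IgG2a replicate 2 lay above replicate 1. The log2 change was -1.67 with a standard error of 0.20 (limma, adjusted p = 1.25e-05). IgG3 is 27 kb from the IgG1 viewpoint and 84 kb from IgG2a, so the sites are not at equal distance.

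These differences are relative to a fixed total, and the IgG2a maps put more of it close by. Within 20 kb of the own viewpoint lay 36.8% to 41.1% of ends in the IgG1 libraries, and 60.7% and 58.9% in the IgG2a libraries. The median of the 24 blocks was lower from IgG2a by 0.71 on the log2 scale. Relative to that median, the change was -1.64 at Emu (limma, adjusted p = 0.000248), -0.70 at hs4 (0.00437) and -0.96 at IgG3 (0.00455), a scaling chosen after seeing the data. Relative to the median of block pairs and elements, which was lower by 1.40 and of which 45 and 53 of 163 were at 0 in the IgG2a libraries, the change was -0.95 at Emu (limma, adjusted p = 0.0277). On that scale hs4 and IgG3 no longer differed by the test, at -0.01 (adjusted p = 0.969) and -0.27 (adjusted p = 0.474).

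**Figure D1:**
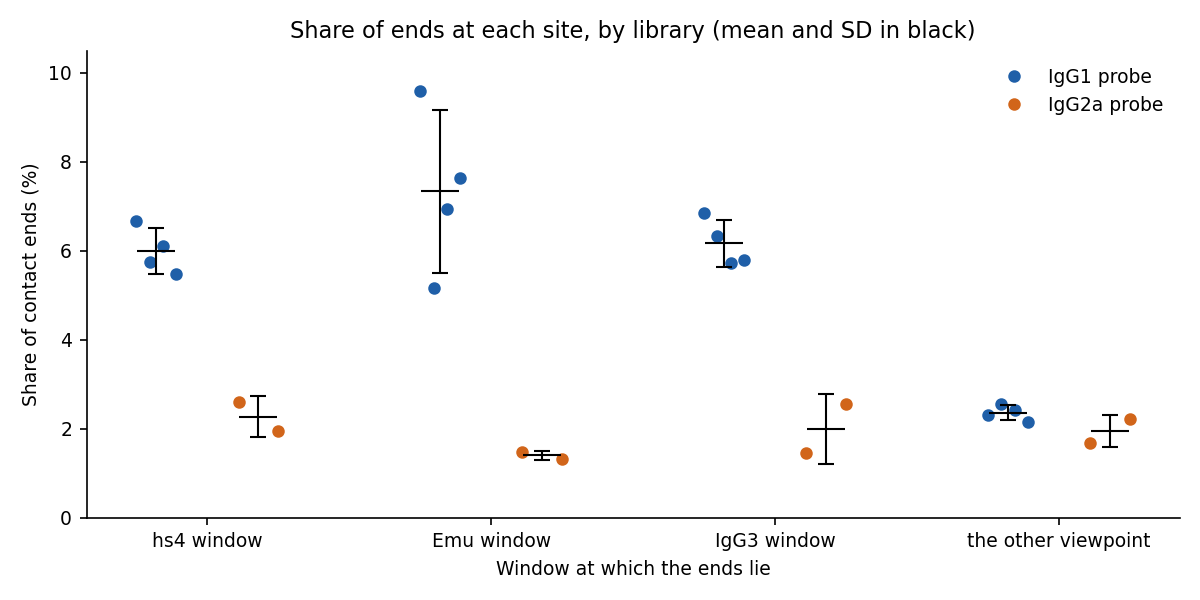
Share of contact ends, in percent, at the windows of hs4, Emu, IgG3 and the other viewpoint (IgG2a seen from IgG1, and IgG1 seen from IgG2a). Each point is a library and the black bars are the mean and SD of 4 IgG1 or 2 IgG2a libraries. At hs4, Emu and IgG3 all IgG1 points lie above all IgG2a points, while at the other viewpoint the groups overlap.

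The balance between both enhancers differed as well. The share at Emu divided by that at hs4 was 1.44, 0.90, 1.14 and 1.39 in the IgG1 libraries, and 0.57 and 0.68 in the IgG2a libraries. In the deposited signal, 3 of 4 IgG1 libraries had more ends at Emu than at hs4, and both IgG2a libraries had fewer. The means were 1.22 ± 0.25 and 0.63 ± 0.08 (SD, n = 4 and 2). This and 8 other single values were compared with an exact two-sided permutation test over libraries, which with 4 against 2 cannot give a p under 0.133. The ratio reached that smallest p (exact permutation p = 0.133, adjusted over 9 measures 0.24). In recovered contacts, which are not divided per bin, every library had fewer ends at Emu than at hs4. They were 3398, 1841, 3668 and 2650 at Emu against 7946, 6722, 10943 and 7447 at hs4 from IgG1. From IgG2a they were 91 and 19 against 1075 and 492.

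hs4 stood out from its surroundings in the IgG1 maps more than in the IgG2a maps. The signal per kb at hs4 over that of the flanks of 11 kb on both sides was 2.58, 2.64, 2.78 and 3.07 from IgG1, and 1.41 and 1.44 from IgG2a. The groups were far apart against their spread, and the exact permutation p was again the smallest possible, 0.133 (adjusted 0.24). For Emu, over the flank on its 1 side in the map, the ratio was 1.61, 1.10, 1.15 and 1.36 from IgG1, and 1.18 and 0.63 from IgG2a. Here the groups overlapped (exact permutation p = 0.4, adjusted 0.45).

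Single bins show where these ends lay. Beyond 20 kb from the own viewpoint, the bins with the most ends from IgG1 lay at 227 kb, with 1.68% ± 0.42 (SD, n = 4), and at 28 kb, with 1.11% ± 0.15. The other 3 of the top 5 were their neighbours at 228, 29 and 226 kb, so all 5 lay in the Emu and hs4 windows. From IgG2a the same 2 leading bins held a mean of 0.317% and 0.383%. The top 5 bins from IgG2a lay 21 to 26 kb from its own viewpoint, led by the bin at 106 kb with 0.963% ± 0.015 (SD, n = 2) and the bin at 64 kb with 0.844% ± 0.329. None of these 5 lay in an enhancer window. The bins were chosen by these values and were not tested.

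Each viewpoint saw the other at a similar, low level. The IgG2a window held 2.31%, 2.55%, 2.43% and 2.15% of ends in the IgG1 libraries, and the IgG1 window held 1.69% and 2.21% in the IgG2a libraries. The groups overlapped, with a difference of -0.41 percentage points (exact permutation p = 0.267, adjusted 0.343). The distance between both sites is the same 57 kb whichever is the viewpoint. In contacts that were not divided per bin the difference was -2.02 percentage points, and without contacts between places under 5 kb apart it turned to 1.87 (exact permutation p = 0.133 for each).

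Over the whole map, the profile was compared in 24 blocks of 10 kb (4 kb at the Emu end). By limma at an adjusted p under 0.05, 19 of the 24 blocks differed (79.2%), 7 higher (29.2%) and 12 lower (50%) from IgG2a. Among the 18 blocks more than 10 kb from either viewpoint, 4 were higher and 9 lower. Relative to the median block, 8 were higher and 7 lower over all 24.

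**Figure D2:**
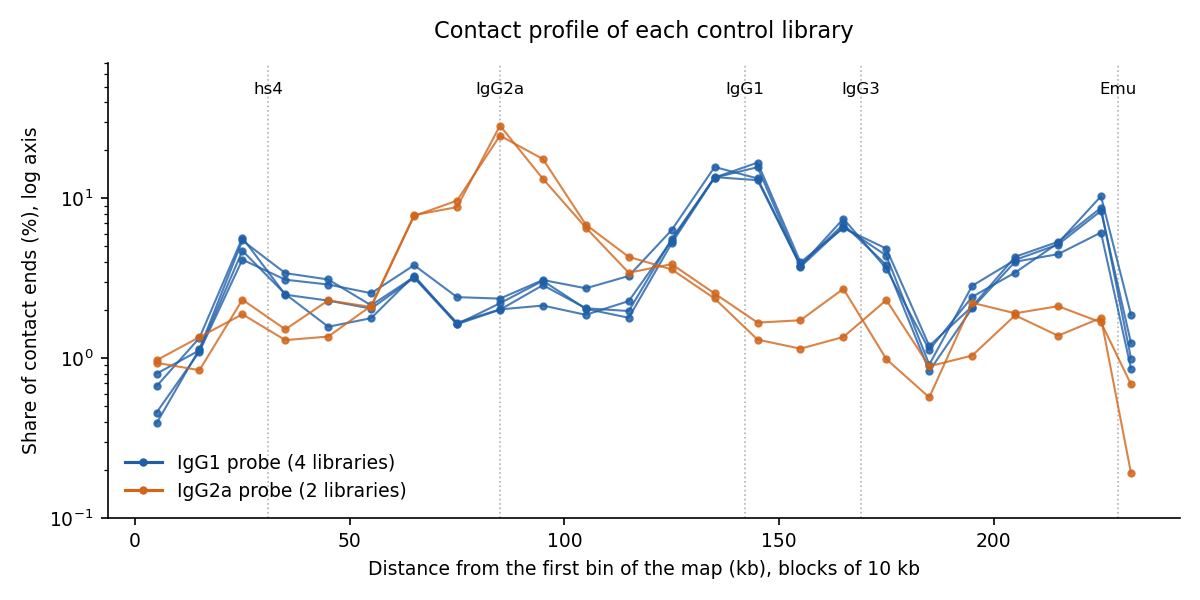
Contact profile of each control library: share of contact ends in percent (log axis) in blocks of 10 kb against the distance from the first bin in kb, with 1 line a library and dotted lines at the named sites. IgG1 lines peak at or beside IgG1 and rise again toward hs4, IgG3 and Emu, while IgG2a lines peak at IgG2a and stay under 3% of ends from 130 kb on.

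Among the blocks more than 10 kb from either viewpoint, those lower from IgG2a by the most lay toward Emu and IgG3. The block at 220 to 230 kb held 10.3%, 6.10%, 8.34% and 8.72% of ends from IgG1, and 1.78% and 1.67% from IgG2a. Its log2 change was -2.25 (limma, adjusted p = 1.18e-05). The block at 160 to 170 kb, at IgG3, changed by -1.83 (limma, adjusted p = 0.000122), and its IgG2a values were 1.36% and 2.71%. The last block, of 4 kb, and those at 210 to 220 and 170 to 180 kb changed by -1.69, -1.56 and -1.45. The last block lost its call without IgG2a replicate 1, at a change of -0.78 (limma, adjusted p = 0.0793).

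Among the same blocks, away from both viewpoints, the largest rises from IgG2a lay to either side of its viewpoint. The block at 100 to 110 kb held 6.84% and 6.55% of ends from IgG2a and 1.86% to 2.73% from IgG1, a log2 change of 1.64 (limma, adjusted p = 5.57e-05). The block at 60 to 70 kb held 7.75% and 7.85% from IgG2a and 3.18% to 3.81% from IgG1, a change of 1.21 (limma, adjusted p = 0.000122). The groups were apart in both blocks. The block at 110 to 120 kb changed by 0.76, and lost its call without IgG2a replicate 1 (0.60, limma, adjusted p = 0.106) or without IgG1 clone 2 replicate 1 (0.65, adjusted p = 0.0505). The block at 0 to 10 kb, beyond hs4, changed by 0.77 (limma, adjusted p = 0.0294). That last call was lost without either IgG2a library, and without either clone 1 library of IgG1, at adjusted p-values of up to 0.121, and its direction turned when all libraries were given 1 divisor, to -0.13.

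Within 10 kb of a viewpoint, 6 of 6 blocks differed. The own window of 11 kb held 18.5% to 21.9% of ends in the IgG1 libraries, and 27.4% and 30.8% in the IgG2a libraries. The block at 80 to 90 kb was higher from IgG2a by 3.63 and that at 140 to 150 kb lower by 3.30 on the log2 scale. The highest block was at 130 to 140 kb in both clone 1 libraries of IgG1, with 13.6% and 15.7% of ends. It was at 140 to 150 kb in both clone 2 libraries, with 15.6% and 16.7%, and at 80 to 90 kb in both IgG2a libraries, with 24.7% and 28.5%. Each library thus peaked at or beside the viewpoint that its label names.

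The decay of contacts with distance was steeper from IgG2a on both sides. The slope of log2 signal on log2 distance over 10 to 80 kb toward Emu was -0.29, -0.37, -0.22 and -0.30 in the IgG1 libraries, and -1.45 and -1.04 in the IgG2a libraries. Toward hs4 it was -0.56, -0.53, -0.49 and -0.55 in the IgG1 libraries, and -1.23 and -1.23 in the IgG2a libraries. On both sides every IgG2a slope was below every IgG1 slope (exact permutation p = 0.133, the smallest possible, adjusted 0.24). The slope is no pure decay, since sites of high contact fall at different distances from each viewpoint.

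At equal distance, 12 of 16 bins of 10 kb differed by limma (75%), 6 higher (37.5%) and 6 lower (37.5%) from IgG2a. In this fit all bins shared 1 estimate of the variance, so p-values lean on that assumption. Close to the viewpoint IgG2a was higher. In the first 10 kb toward Emu lay 9.99%, 10.2%, 12.7% and 13.4% of ends from IgG1, and 19.6% and 19.3% from IgG2a, a log2 change of 0.76 (limma, adjusted p = 0.00043). Toward hs4 the first 10 kb held 14.5% to 16.8% from IgG1, and 20.03% and 22.9% from IgG2a, a change of 0.49 (limma, adjusted p = 0.0163).

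Farther out toward Emu the order turned. At 60 to 70 kb lay 3.93%, 3.98%, 4.13% and 4.57% of ends from IgG1, and 0.863% and 1.81% from IgG2a, a change of -1.72 (limma, adjusted p = 2.85e-12). At 70 to 80 kb the change was -1.81, with 4.78% to 6.01% from IgG1, and 1.65% and 1.5% from IgG2a. From IgG1 these bins reach 222 kb, next to the Emu window, while from IgG2a they cover the 20 kb that start at 145 kb, between the IgG1 and IgG3 sites.

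At 40 to 50 kb toward Emu the IgG1 libraries had a trough that the IgG2a libraries lacked. There lay 1.23%, 1.01%, 1.03% and 0.947% of ends from IgG1, and 2.71% and 2.95% from IgG2a, a change of 1.43 (limma, adjusted p = 1.08e-09). This stretch is at 182 to 192 kb in the IgG1 maps, between IgG3 and Emu. The fixed block at 180 to 190 kb was low from both viewpoints, at 0.828% to 1.19% from IgG1, and 0.888% and 0.567% from IgG2a, and did not pass the test there (-0.49, limma, adjusted p = 0.0797).

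Toward hs4, ends at 40 to 50 kb changed by -1.15 and those at 70 to 80 kb by -1.11 (limma, adjusted p = 2.76e-07 and 5.83e-07). At 50 to 60 kb, where IgG2a looks onto hs4 and IgG1 onto the IgG2a site, the shares were 1.94% to 2.05% from IgG1, and 2.58% and 1.73% from IgG2a. The groups overlapped, and the change of 0.09 did not pass the test (limma, adjusted p = 0.629). In recovered contacts the change at 40 to 50 kb toward hs4 was 0.01, and those at 10 to 20 kb were -0.11 toward hs4 and -0.01 toward Emu, none of them past the test.

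**Figure D3:**
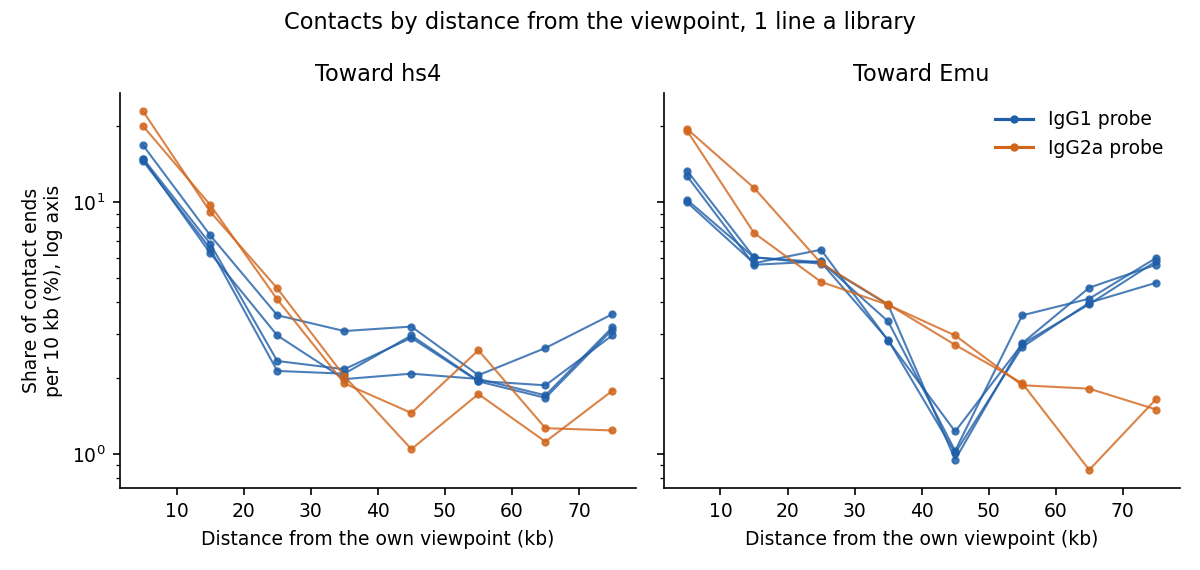
Share of contact ends per 10 kb in percent (log axis) against distance from the own viewpoint in kb, toward hs4 (left) and toward Emu (right), with 1 line a library. IgG2a lines start higher in the first 10 kb on both sides and are lower at 70 to 80 kb, and IgG1 lines toward Emu pass a trough at 40 to 50 kb and climb to 4.78% to 6.01% at 70 to 80 kb.

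Pairs that join both enhancers with the viewpoint were rare from either viewpoint. Contacts joining the hs4 and Emu windows made up 0.434%, 0.157%, 0.137% and 0.02497% of contacts in the IgG1 libraries, and 0.00849% and 0 in the IgG2a libraries. The groups did not overlap, but the IgG1 libraries spanned from 0.02497% to 0.434%, with the lowest in clone 2 replicate 2. They rest on 71, 50, 78 and 17 recovered contacts from IgG1, and on 1 and 0 from IgG2a. The count of 0 among 11502 contacts allows a share of up to 0.0261%. The recovered share in the lowest IgG1 library was 0.0339%, with a 95% exact Clopper-Pearson interval of 0.0197% to 0.0543%, which overlaps those of the IgG2a libraries, with upper bounds of 0.0365% and 0.0321%.

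The fitted log2 change of the pair was -2.87 with a standard error of 0.78 (limma, adjusted p = 0.0068), and depends on the value of 50 added before taking logs. Against IgG1 clone 2 alone it did not pass the test (-1.96, limma, adjusted p = 0.0931), nor in a test on recovered contacts (-3.42, voom with limma, adjusted p = 0.0998). Summed over libraries, the recovered share was 27.1 times as high from IgG1, at 216 of 213296 contacts against 1 of 26776, with a 95% exact interval of 4.82 to 1076. This interval covers counting error only and is too narrow where contacts repeat 1 molecule. Recovered contacts were clumped: of bin pairs 20 kb or more apart only 0.735% to 8.93% held any, and those held a mean of 2.72 to 4.63 contacts.

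Relative to how often each enhancer was seen on its own, the pair was less frequent than a random match of ends in every library. Observed over expected, with the expected share as 2 times the product of both shares of ends, was 0.339, 0.264, 0.161 and 0.0298 in the IgG1 libraries, and 0.111 and 0 in the IgG2a libraries. The groups overlapped (exact permutation p = 0.267, adjusted 0.343). The expected share takes no account of distance, while 51.9% to 57.8% of contacts had both ends in the same bin. Places far apart fall below such an expected share for that reason alone, so a ratio under 1 says nothing particular about the enhancers.

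Pairs of an enhancer with IgG3 were likewise sparse from IgG2a. hs4 with IgG3 rested on 57, 38, 53 and 22 recovered contacts from IgG1, and on 0 and 1 from IgG2a (log2 change of signal -2.31, limma, adjusted p = 0.00479), and summed over libraries was 21.3 times as high from IgG1 (95% exact interval 3.78 to 848, counting error only). The change of hs4 with IgG3 did not pass the test on recovered contacts (-3.18, voom with limma, adjusted p = 0.095). Relative to the median pair it did not pass either (-0.91, limma, adjusted p = 0.196). Emu with IgG3 rested on 23, 29, 40 and 0 contacts from IgG1 and on none from IgG2a. Its change passed the test (-2.39, limma, adjusted p = 0.0298) and lost it without any of the first 3 of these IgG1 libraries (-2.15, -2.07 and -2.15, adjusted p = 0.077, 0.109 and 0.082). Nor did it pass on recovered contacts (-2.08, voom with limma, adjusted p = 0.526) or relative to the median pair (-0.99, limma, adjusted p = 0.319). With 3 contacts taken as the floor over both IgG2a libraries, Emu with IgG3 was at least 3.85-fold higher from IgG1.

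Contacts with both ends inside 1 window carried most of the site signal. Contacts within Emu made up 8.16%, 4.30%, 6.04% and 7.20% of contacts from IgG1, and 1.38% and 1.25% from IgG2a (log2 change -2.24, limma, adjusted p = 7.58e-06). Contacts within hs4 made up 5.33%, 4.47%, 4.92% and 4.85% from IgG1, and 2.17% and 1.59% from IgG2a (-1.39, adjusted p = 0.000147). Contacts within IgG3 made up 4.76% to 5.52% from IgG1, and 1.18% and 2.48% from IgG2a (-1.55, adjusted p = 0.00032). In none of the 3 windows did the groups overlap. In recovered contacts the Emu value rests on 682 to 1425 contacts from IgG1, and on 41 and 7 from IgG2a. Relative to the median pair none of the 3 passed the test, at -0.84 within Emu (limma, adjusted p = 0.0863), -0.15 within IgG3 (0.772) and 0.013 within hs4 (0.969). Without contacts of ends under 5 kb apart, within hs4 did not pass it either (-2.08, adjusted p = 0.167).

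All 9 elements, the 3 sites, their pairs and the contacts within each, were lower from IgG2a by limma, where 82 of the 163 block pairs and elements tested were lower (50.3%), 20 higher (12.3%) and 102 changed either way (62.6%). The median log2 change was -2.24 over the 9, or -1.94 with the 3 sparse pairs at their counting bound, against -1.46 over all 163. Away from both viewpoints, 44 of 83 pairs were lower and 4 higher from IgG2a. Relative to the median pair, 42 were higher and 19 lower over all 163. Of the 9 elements only the Emu site was still called on that scale (-0.95, limma, adjusted p = 0.0277). The others had adjusted p-values of 0.0863 to 0.969 by limma. The 9 share contacts, as those within a window also count at its site, so they are not separate results.

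Of the pairs of blocks away from both viewpoints, the 5 that were lower from IgG2a by the most had both ends beyond 160 kb. The pair of the block at 220 to 230 kb with the last 4 kb, on both sides of the Emu site, made up 0.866%, 0.417%, 0.433% and 0.814% of contacts from IgG1 and was at 0 in both IgG2a libraries, at least 16.4-fold higher from IgG1 with 3 contacts as the floor over the group. The pairs of 160 to 170 with 200 to 210 kb and with 220 to 230 kb, and those of 170 to 180 with 180 to 190 kb and of 200 to 210 with 220 to 230 kb, were also at 0 in both IgG2a libraries. Each was at least 4.44-fold to 7.91-fold higher from IgG1. They rest on 106 to 189 recovered contacts over the 4 IgG1 libraries. None of them passed the test on recovered contacts (voom with limma, adjusted p = 0.0625 to 0.292). Relative to the median pair none passed either (limma, adjusted p = 0.0653 to 0.226). The pair of 220 to 230 kb with the last 4 kb lost its call without contacts of ends under 5 kb apart (-2.64, limma, adjusted p = 0.0699). The pair of 160 to 170 with 220 to 230 kb had 1 of its 189 contacts in clone 2 replicate 2, and its call was lost without any of the other 3 IgG1 libraries (limma, adjusted p = 0.0558 to 0.102).

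The 4 pairs away from both viewpoints that were higher from IgG2a were 3 blocks with themselves and 1 pair across its viewpoint. Contacts within 100 to 110 kb made up 5.78% and 5.71% of contacts from IgG2a and 1.48% to 2.07% from IgG1 (log2 change 1.71, limma, adjusted p = 5.39e-05). Contacts within 60 to 70 kb made up 6.76% and 7.09% from IgG2a and 2.63% to 3.24% from IgG1 (1.27, adjusted p = 0.000147). Contacts within 110 to 120 kb changed by 0.91 (adjusted p = 0.0123). Without contacts of ends under 5 kb apart none of these 3 passed the test, at -0.25 within 100 to 110 kb (limma, adjusted p = 0.913), 1.82 within 60 to 70 kb (0.172) and 0.74 within 110 to 120 kb (0.768). The pair of 60 to 70 with 110 to 120 kb, which spans the IgG2a viewpoint, made up 0.101% and 0.101% from IgG2a and 0.00371% to 0.0537% from IgG1, on 15 and 20 contacts from IgG2a. Its change of 1.57 passed the test (adjusted p = 0.0446) and lost it without either IgG2a library (adjusted p = 0.13 and 0.131), or without any of clone 1 replicate 3, clone 2 replicate 1 and clone 2 replicate 2 of IgG1 (adjusted p = 0.0664 to 0.078).

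Pairs with an end near a viewpoint show which places each viewpoint joined to itself. From IgG1, the block at 140 to 150 kb joined 220 to 230 kb, at Emu, in 0.455%, 0.479%, 0.364% and 0.205% of contacts, and joined 30 to 40 kb, at hs4, in 0.184%, 0.225%, 0.252% and 0.0958%. Both were at 0 in the IgG2a libraries, and at least 23.9-fold and 16.1-fold higher from IgG1. That block holds the IgG1 viewpoint and had 9.87 times the share of ends from IgG1, so these folds do not compare the viewpoints on equal terms. From IgG2a, its own block at 80 to 90 kb joined 30 to 40 kb in 0.0533% and 0.0256% of contacts, on 10 and 4 recovered contacts. It joined 20 to 30 kb in 0.0595% and 0.12%. In both pairs the groups overlapped. From IgG2a, the block at 80 to 90 kb joined 90 to 100 kb in 1.73% and 1.49% of contacts, against 0.0484% to 0.186% from IgG1. The pair of 40 to 50 with 90 to 100 kb, which spans the IgG2a viewpoint, made up 0.0812% and 0.36% from IgG2a, and 0.019%, 0.00494%, 0 and 0 from IgG1.

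**Figure D4:**
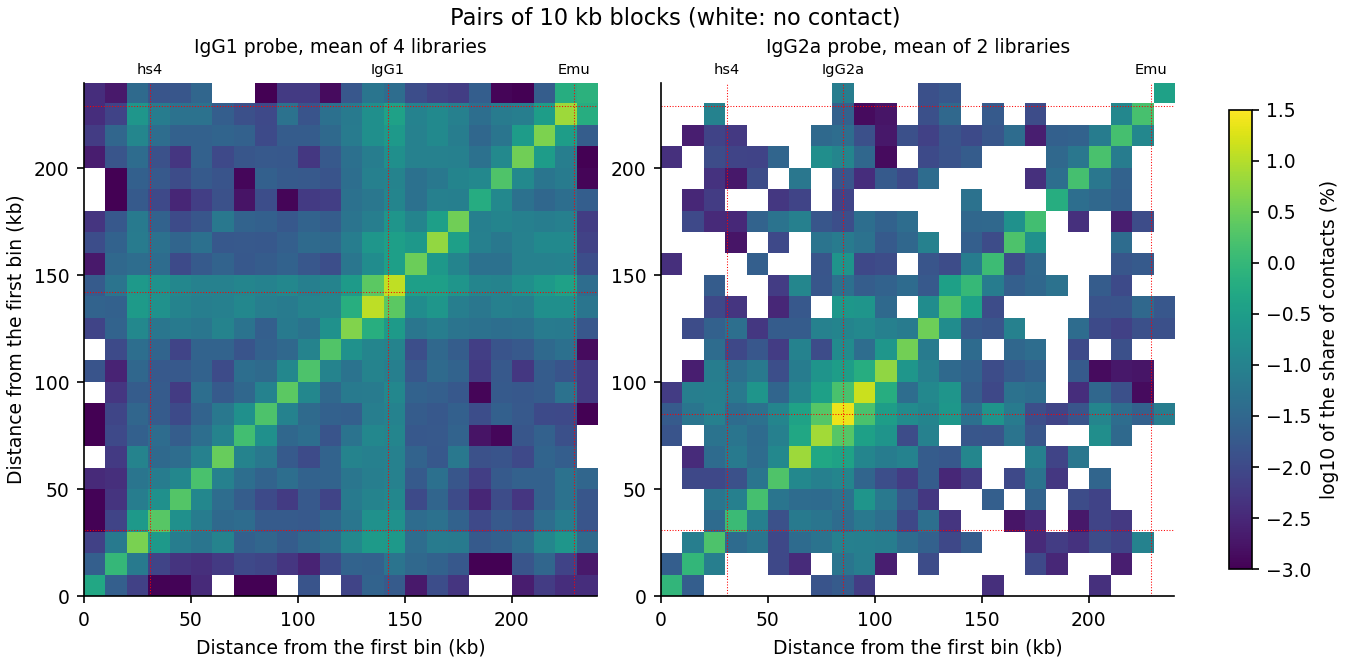
Mean share of contacts in percent, on a log10 colour scale, for each pair of 10 kb blocks (the last, drawn at full width, is 4 kb) in 4 IgG1 libraries (left) and 2 IgG2a libraries (right), with dotted lines at hs4, Emu and the own viewpoint. Both maps are brightest on the diagonal and along the own viewpoint, and the IgG2a map has many more empty (white) pairs, with 45 and 53 of the 163 tested at 0 in its libraries against at most 5 in an IgG1 library.

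The second end of the contacts at each enhancer was followed next, in classes chosen after the values were seen and therefore not tested. Of contacts with an end at hs4, 63.6% to 79.4% had the second end in the same window from IgG1, and 71.7% and 69.2% from IgG2a. A second end within 10 kb of the own viewpoint was found in 6.89% to 12.02% from IgG1, and in 6.94% and 9.32% from IgG2a. The groups overlapped in both classes. The second end lay at Emu in 5.41%, 2.24%, 1.87% and 0.409% of them from IgG1, and in 0.281% and 0 from IgG2a, so that the IgG1 clone 2 replicate 2 library was close to the IgG2a libraries.

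Of contacts with an end at Emu, 70.9% to 88.98% had both ends there from IgG1, and 87.7% and 88.5% from IgG2a. The class that set the groups apart was the rest of the map, outside both enhancers and the viewpoint, with 16.4%, 19.2%, 15.7% and 8.36% from IgG1, and 5.89% and 6.75% from IgG2a. IgG1 clone 2 replicate 2 was the library nearest to IgG2a in this class and in the share with both ends at Emu. These shares are of the deposited signal. In recovered contacts the IgG2a libraries had only 91 and 19 ends at Emu, with 41 and 7 contacts inside the window. Very few contacts thus lay in the other classes from IgG2a, and their shares are uncertain.

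**Figure D5:**
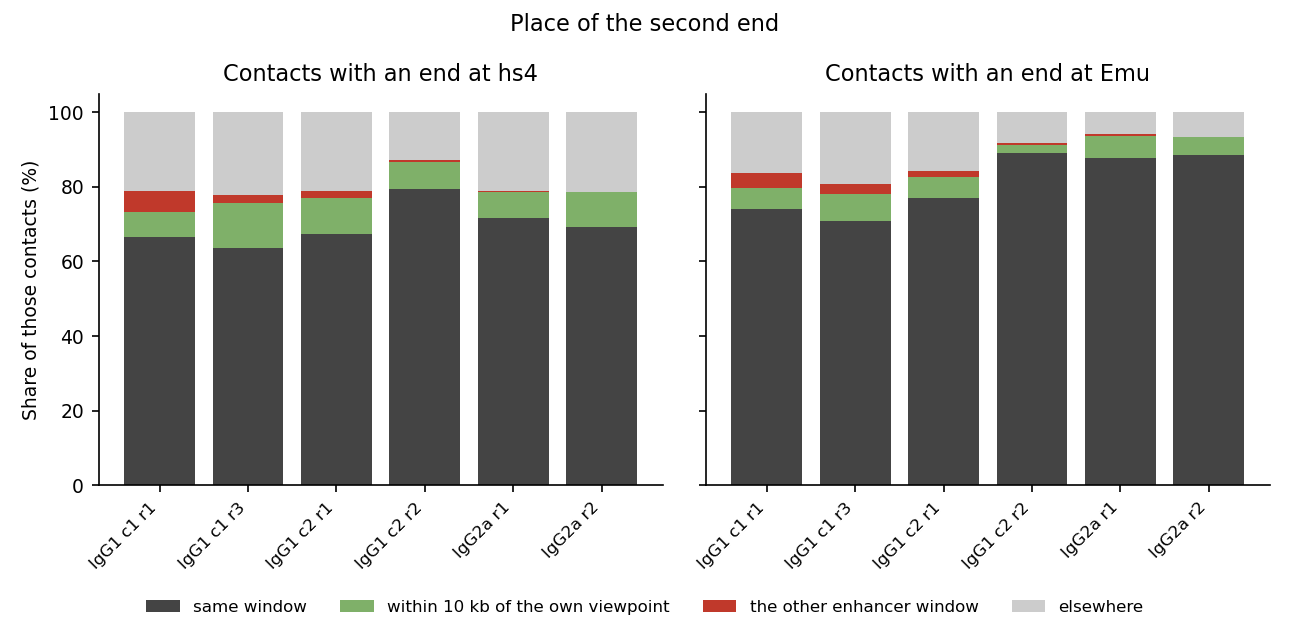
Place of the second end of contacts with an end at hs4 (left) or Emu (right), as a share of those contacts in percent, with 1 stacked bar a library (c for clone, r for replicate). The window itself holds the most in every bar, and the red part, the other enhancer, is largest in IgG1 clone 1 replicate 1, at 5.41% and 3.94%, and 0 in IgG2a replicate 2.

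Contacts over long distances were the class of separation in which the groups did not overlap. Ends 80 kb or more apart made up 6.11%, 5.64%, 4.57% and 2.82% of contacts from IgG1, and 1.95% and 1.22% from IgG2a. The cut at 80 kb does not fall alike for both viewpoints. From IgG1 both enhancers lie beyond it, at 87 kb for Emu and 111 kb for hs4. From IgG2a Emu lies beyond it, at 144 kb, but hs4 does not, at 54 kb. Ends in the same bin made up 51.9% to 57.4% from IgG1, and 57.8% and 57.1% from IgG2a, and ends 20 to 79 kb apart made up 4.51% to 8.72%, and 5.83% and 4.16%. The groups overlapped in these and in the remaining classes.

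Contacts whose ends lie on opposite sides of the viewpoint made up 7.68%, 7.81%, 5.86% and 4.19% from IgG1, and 5.94% and 4.31% from IgG2a. The groups overlapped (exact permutation p = 0.667). The difference of -1.26 percentage points turned to 0.097 against clone 2 alone, and to 12.99 without contacts of ends under 5 kb apart. The share of ends on the Emu side of the own viewpoint was 42.9% to 51.1% from IgG1, and 57.5% and 55.5% from IgG2a, where IgG2a has more of the map on that side (exact permutation p = 0.133, adjusted 0.24).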

How the data were processed

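The 6 control libraries were taken by their labels from the Spt5 experiment; depleted libraries were left out. The labels' protocols give formaldehyde fixation, NlaIII digestion, ligation, sonication and 2 rounds of hybridization to the probe. The submitters' processing notes name Bowtie2 and mm9; not given in the sources used here are versions, the contact caller and the scaling. The authors deposited a signal: 1 upper-triangle matrix of 1 kb bins a library, with no coordinates and a sum of 300000. Its values behave as whole contacts over a product of whole-number divisors, 1 per bin, then scaled. That division was inferred. With the smallest fitting divisor, 98.8% to 100% of off-diagonal values under 20 contacts came out whole, which the fit was chosen to do. The tolerance was 0.04, or 1.5 times the rounding error. Of diagonal values under 20 contacts, 79.8% to 100% came out whole before they entered the fit, with 83.3% and 79.8% in the IgG2a libraries. The diagonal then helped to choose the divisors, after which 94.2% to 100% did. The mean divisor was 4.79 to 4.88 in the IgG1 and 4.27 to 4.51 in the IgG2a libraries, and whether the authors' divisor differed is not known. Of 6 libraries simulated under this same division with the fitted divisors, 5 gave back their total to within 5%. Those fits started from the divisors of the first library, so they cannot show whether the inferred division holds.

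Blocks (24), block pairs (300) and 9 elements with a mean value of at least 100, and 16 distance bins were each tested on log2(value + 50) by limma (3.58.1, R 4.3.3), IgG2a minus IgG1, with Benjamini-Hochberg adjustment over each family at 0.05. Fold changes on that scale understate those of low values. Single values were tested with scipy 1.17.1. Regions named are all elements and the 5 called blocks and pairs with the largest change each way and no overlap of groups, those within 10 kb of a viewpoint apart; only 4 exist for some. Other regions named were chosen after their values were seen. Members, elements and tests were chosen with earlier results of these data known. Intervals and floors (3 contacts) cover counting error only. Gene order was read from GRCm38.p6, another build, which lists no Ighg2a. Alternatives were 24 settings, the reported one included, 3 of them added after seeing the data.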

Additional observations from a re-analysis of the deposited data

Results flagged for a closer look

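Groups of 4 libraries were screened for a library far from the other 3 (by Dixon's test, the gap to the nearest over the range), in 58 values of the IgG1 libraries. 7 were found (12.1%), where chance gives about 1 in 20, and the values overlap each other in content. IgG1 clone 1 replicate 3 was the library apart in 5 of the 7. It held 3.81% of ends at 60 to 70 kb, where the other 3 had a median of 3.22%, 2.41% at 70 to 80 kb against 1.63%, and 15.7% at 130 to 140 kb against 13.5%. It held 16.8% of ends in the first 10 kb toward hs4 against a median of 14.8%, and 3.07% at 30 to 40 kb toward hs4 against 2.08%. IgG1 clone 1 replicate 1 held 6.47% at 20 to 30 kb toward Emu against 5.77%, and clone 2 replicate 1 held 3.55% at 50 to 60 kb toward Emu against 2.73%. Groups of 2 IgG2a libraries could not be screened.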

How the results depend on the processing

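Over the 15 main results (3 counts of calls, hs4, Emu, hs4 with Emu and the 9 single measures) 242 of 257 alternative values kept direction and call, and over 56 single regions 1043 of 1156. Relative to the median pair, hs4 changed by -0.011 (limma, adjusted p = 0.969), contacts within hs4 by 0.013, and hs4 with Emu by -1.47 (0.102). hs4 with Emu was -1.96 against clone 2 alone (0.0931) and -3.42 by voom (0.0998). Calls were 10 blocks and 56 pairs with blocks of 20 kb, and 61 pairs relative to the median pair, 60 without bins near either viewpoint, 62 against clone 2 alone and 47 by voom. Called distance bins were 7 without pairs under 5 kb apart and 6 against clone 1 alone. Without pairs under 5 kb apart the share of the other viewpoint was 1.87 and the spanning share 12.99 percentage points higher; against clone 2 alone the latter was 0.097 higher. Single regions that turned were the block at 0 to 10 kb (-0.37 without pairs under 5 kb apart, -0.13 with 1 divisor) and contacts within 100 to 110 kb (-0.25 without pairs under 5 kb apart). Distance bins that turned, toward hs4, were 10 to 20 kb (-0.38 by voom, -0.11 in recovered contacts), 30 to 40 kb (0.11 without bins near either viewpoint, 0.62 without near pairs), 40 to 50 kb (0.0069 recovered), 50 to 60 kb (-0.40 by voom, -0.11 recovered; without single libraries -0.20 to 0.38) and 60 to 70 kb (1.45 without bins near either viewpoint). Toward Emu they were 10 to 20 kb (-0.28 by voom, -0.0058 recovered), 20 to 30 kb (0.15 without bins near either viewpoint, 0.046 recovered) and 50 to 60 kb (0.060 without near pairs). The causes were not tested.

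With same-numbered IgG1 libraries summed to 3 samples hs4, Emu and hs4 with Emu kept their calls, and Emu with IgG3 lost it (-2.15, limma, adjusted p = 0.0615). Leaving out 1 library at a time, where a lone IgG2a library is assumed to vary like the IgG1 libraries, gave 17 to 20 blocks, 79 to 103 pairs and 11 to 12 distance bins called. Changes ranged from -1.62 to -1.20 at hs4, -2.50 to -2.21 at Emu and -3.48 to -2.34 for hs4 with Emu. With the replicate number as a block, 16 blocks, 89 pairs and 12 distance bins were called, and the changes were -1.38 at hs4, -2.48 at Emu and -2.50 for the pair, while Emu with IgG3 lost its call (-1.77, limma, adjusted p = 0.0981). Neither the labels nor the data show that the numbers pair the libraries: deviations of same-numbered libraries correlated at -0.12 to -0.31, a check that 2 IgG2a libraries, with mirror-image deviations, cannot settle. Sparse pairs are limited by the 11502 to 15274 contacts of the IgG2a libraries.

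The slopes, the ratios and other single values could not be fitted with a block, voom or a clone term, and the share of the other viewpoint and the slopes have no value without bins near either viewpoint.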

Other observations

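Libraries of other probes show the same sites from the enhancers, at 72 h of activation unless another time is given. Their titles read B18AIDKO, where the control cells are labelled WT, and some 0 h titles carry a joint replicate number. This is a different experiment that was not tested against the control libraries. From Emu, the IgG1 window held 7.67% to 7.92% of ends and the IgG2a window 1.54% to 3.14% over 3 libraries. From hs4, the IgG1 window held 3.48% to 3.82% and the IgG2a window 3.25% to 3.76% over 3 libraries, so that those ranges overlapped, although IgG2a lies nearer to hs4. The IgG1 share from hs4 divided by the IgG2a share was 0.926 to 1.17 at 72 h. It was 0.661 to 0.834 over 3 libraries at 48 h, and 0.452 and 0.785 in 2 libraries at 0 h. At 48 h and 0 h every hs4 library thus held more at IgG2a than at IgG1. From Emu at 48 h, the IgG1 window held 6.14% to 6.32% and the IgG2a window 0.991% to 1.91% over 3 libraries. At 0 h, the IgG1 window held 1.64% and 2.72% of ends from Emu and the IgG2a window held 2.22% and 3.28%, in 2 libraries. From the IgG1 probe of that experiment, over 6 libraries at 72 h, hs4 held 5.01% to 6.50%, Emu 9.68% to 12.8% and the IgG2a window 1.83% to 2.12%. Over 6 libraries at 48 h, hs4 held 4.53% to 6.74%, Emu 6.81% to 13.1% and the IgG2a window 1.87% to 2.68%. Over 4 libraries at 0 h, hs4 held 2.46% to 3.09%, Emu 1.91% to 2.58% and the IgG2a window 4.19% to 5.01%. The control libraries seen from IgG1, at 5.48% to 6.67% for hs4, 5.18% to 9.58% for Emu and 2.15% to 2.55% for IgG2a, lay outside each of the 0 h ranges and overlapped each of the 48 h ranges. At 72 h they overlapped for hs4 and lay outside for Emu, below, and for IgG2a, above.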
